A study of Mus musculus with 24 samples.

Results

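The 95 cytochrome P450 genes of the table were examined in 24 mouse liver RNA-seq libraries. They were the symbols made of Cyp, a family number, a subfamily letter and a gene number, with Cyp51 added, out of 35974 symbols in all. Pseudogenes and symbols ending in another letter, 10 in number, fell outside this definition. The definition itself used names only and no measured value, but it was set with earlier results of these data known.

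The libraries came from livers of strain C3H/HeJ, 12 labelled wild type (WT in the titles) and 12 labelled transgenic (TGA). Each title ends in 2, 4 or 8, called class 2, class 4 and class 8 here, and each of the 6 combinations of genotype and class holds 4 libraries, numbered 1 to 4. The labels do not name the transgene or its promoter, do not say what the class is, give no age, sex or treatment, and do not say whether libraries with one number come from one animal. Separate animals per library are not stated either, so p-values below refer to spread among libraries, part of which may be technical. RNA extraction used an FFPE kit, made for archived fixed tissue, and the series title concerns polyploid hepatocytes, the parenchymal cells of liver that carry extra genome copies, in chronic liver disease.

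Cytochrome P450 enzymes hold a haem group with which they split molecular oxygen and insert 1 of its atoms into a substrate. In hepatocytes, members of families 1 to 3 oxidise drugs, toxins and arachidonic acid, family 4 hydroxylates fatty acids, and several single-gene subfamilies make bile acids from cholesterol. Many are zonated: Cyp2e1 and Cyp1a2 are textbook markers of hepatocytes around the central vein, and Cyp2f2 of those around the portal tract. Microsomal P450 enzymes receive electrons from the reductase Por and from cytochrome b5, and mitochondrial ones, such as Cyp27a1, from ferredoxin.

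The stretch around the haem-binding cysteine shows what the family members share. It was searched in coding sequences of the GENCODE M21 annotation (GRCm38), on the coding strand and in frame, as the codons for phenylalanine, any pair of residues, glycine, any residue, arginine, any residue, cysteine, any residue and glycine. A coding transcript was matched to 93 of the 95 symbols (not to Cyp2c44 and Cyp2d13), and 84 of the 93 held the signature, against 92 of all 21500 coding genes searched (0.428%). It was not found, in these letters, in Cyp20a1, Cyp2b10, Cyp2s1, Cyp39a1, Cyp3a59, Cyp51, Cyp7a1, Cyp7b1 and Cyp8b1. The 30 coding bases are shown for the 6 genes described singly below, with the cysteine codon in capitals (codon 437 in Cyp2e1, 456 in Cyp1a2, 439 in Cyp2a5, 436 in Cyp2f2, 446 in Cyp2d9 and 479 in Cyp27a1).
Cyp2e1: ttttctgcaggaaagcgcgtgTGTgttgga
Cyp1a2: ttcggcttgggaaagcgccggTGCattggg
Cyp2a5: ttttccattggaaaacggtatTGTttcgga
Cyp2f2: ttttcggctggacgtcgactgTGTctggga
Cyp2d9: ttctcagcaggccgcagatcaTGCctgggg
Cyp27a1: ttcggctatggggttcggtctTGCctgggt

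Close copies bear on what single-end reads of 75 bases can tell apart. Of the 93 genes, 60 had at least 1 stretch of 75 bases in their transcript that also occurs in another gene. The share of such stretches was highest in Cyp2c40 (57.1%), was 25.5% in Cyp2a5 and 16.7% in Cyp2d9, was 7.37% in Cyp2f2 and 3.38% in Cyp1a2, and was 0 in Cyp46a1. Among genes never above 0 the median share was 5.16%, and among those above 0 in any library 1.71%. The counting of reads with more than 1 place in the genome is not given in the sources used here, so values of these genes, and of Cyp2a5 and Cyp2d9 in particular, may hold or lack reads of a copy. Cyp2a5 and Cyp2a4, a female-biased gene, differ at 23 of 1482 coding bases (98.4% identical). Bases 596 to 655 of the coding sequence hold 4 of these differences, in capitals below, which are G603T, C607A, T625C and C655G with the base of Cyp2a5 first and positions counted from the A of the start codon.
Cyp2a5: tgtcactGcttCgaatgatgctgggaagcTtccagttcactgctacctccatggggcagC
Cyp2a4: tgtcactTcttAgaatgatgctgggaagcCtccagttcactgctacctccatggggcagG
Cyp2a4 was above 0 in 3 of 24 libraries and Cyp2a5 in 12.

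All levels below are log2(normalised count + 1), obtained from the deposited values, and read totals cannot be recovered from them. The most frequent value above 0 differed between libraries, from a normalised count of 0.059 in WT number 1 classes 2 and 4 to 20.8 in TGA number 2 class 4. Lower values than the most frequent one also occurred. A given low or middling level therefore does not mean the same in every library. The libraries differed widely in how much they held, from 1624 to 15147 genes above 0. WT number 1 class 2 (15147 genes), WT number 1 class 4 (14469), TGA number 3 class 8 (9096) and WT number 4 class 2 (7570) held over 7000, a limit chosen with earlier results of these data known, and TGA number 4 class 2 came next at 6468. Genes that every cell uses were listed at 0 in many libraries, Actb (beta-actin) in 14 and Gapdh (a glycolytic enzyme) in 19 of 24, so a P450 gene listed at 0 is not shown to be silent. The library markers were those of hepatocytes: all 15 listed hepatocyte genes passed the filter on low values, whereas 0 of 11 macrophage and Kupffer cell genes, 0 of 7 lymphocyte, 0 of 5 neutrophil and 0 of 6 erythroid genes, 1 of 6 cholangiocyte, 1 of 10 stellate cell and fibroblast and 3 of 11 endothelial genes did. Never above 0 were 4 of the 11 macrophage genes (C1qa and Cd5l among them), 2 of the 7 lymphocyte genes (Cd79a and Nkg7), 2 of the 5 neutrophil genes (Ly6g and Elane) and 5 of the 6 erythroid genes (the haemoglobin genes among them). The others were seen in some libraries, the mean over a list reaching 2.02 for macrophage, 1.15 for lymphocyte, 1.09 for neutrophil and 0.29 for erythroid genes in its highest library. Zeros were also nested between libraries: every symbol above 0 in the 12 TGA libraries and the 3 of WT number 4 was also above 0 in WT number 1 class 2 or class 4 (19745 symbols), whereas the 7 remaining WT libraries each held 103 to 666 symbols outside that set. Of the P450 genes 28 lay outside it, so their zeros in those 15 libraries share this pattern, while all 19 tested P450 genes and 4871 of the 4875 tested genes lay within.

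Most P450 genes were seen in few libraries. Of the 95, 22 were above 0 in no library, 7 in 1, 33 in 2 to 4, and 33 in 5 or more. Only 7 were above 0 in at least 12 libraries, and only Cyp2e1 in all 24. The share never above 0 was 23.2%, against 40.5% of all symbols. The 22 were Cyp1a1, Cyp2b9, Cyp2b10, Cyp2b13, Cyp2c37, Cyp2c39, Cyp2c44, Cyp2c54, Cyp2c66, Cyp2c69, Cyp2d11, Cyp2d12, Cyp2g1, Cyp2j8, Cyp2t4, Cyp2w1, Cyp3a44, Cyp4a14, Cyp4f16, Cyp4f40, Cyp4x1 and Cyp11b2. They include Cyp1a1 and Cyp2b10, known as genes that toxins and drugs induce, but also Cyp2c37 and Cyp2c54, members of a subfamily that liver expresses strongly. Another 12 members were above 0 only in the 4 libraries with over 7000 genes. Cyp3a11, a main drug-metabolising enzyme of mouse liver, was above 0 in 4 libraries with a highest value of 3.41, and Cyp2c29 in 2 with a highest value of 4.71.

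The number of P450 genes above 0 followed the number of genes above 0. In WT class 2 it was 54, 10, 7 and 23 for numbers 1 to 4, in WT class 4 it was 51, 11, 3 and 6, and in WT class 8 it was 12, 8, 5 and 7. In TGA class 2 it was 11, 20, 28 and 26, in TGA class 4 it was 8, 6, 13 and 10, and in TGA class 8 it was 9, 15, 33 and 12. The 2 highest counts were those of WT number 1, and leaving out the 4 above 7000 genes, the counts ran from 3 to 12 (median 7) in WT and from 6 to 28 (median 12) in TGA. Across the 24 libraries, which share their depth between both counts, Pearson's r was 0.95 and Spearman's rho 0.77, given as a description.

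**Figure D1:**
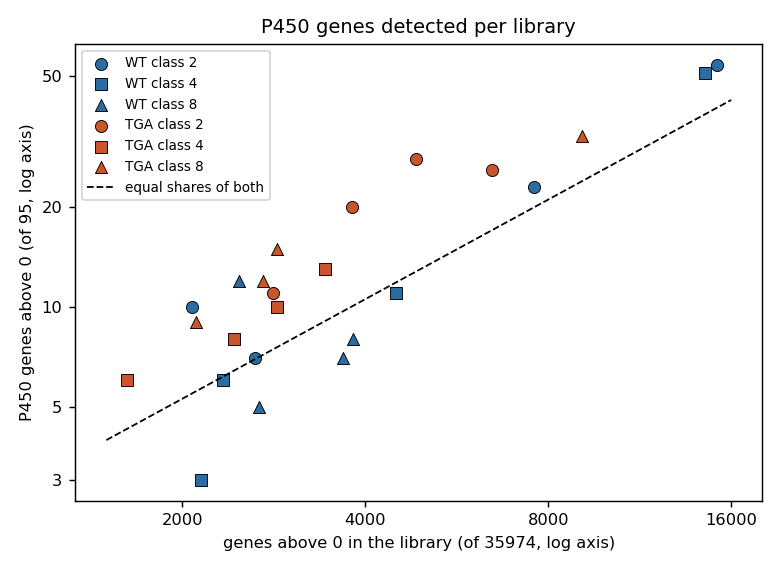
Number of P450 genes above 0 (of 95, log axis) against the number of all genes above 0 (of 35974, log axis), with 1 point per library, WT in blue and TGA in orange, and the dashed line at equal shares. All 12 TGA libraries lie above the line, as do 6 of 12 WT libraries, and the 2 points at upper right are WT number 1 in classes 2 and 4.

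Against the share of all genes above 0 in the same library, the P450 share was larger in 18 of 24 libraries. It was larger in 12 of 12 TGA libraries, with a median ratio of the 2 shares of 1.501, and in 6 of 12 WT libraries, with a median ratio of 0.99. The ratio ran from 1.24 to 2.19 in TGA and from 0.53 to 1.83 in WT, so the genotypes overlapped. Counted only among the 19745 symbols above 0 in WT number 1 class 2 or class 4, a comparison chosen after seeing the data, the P450 share was larger in 11 of 12 TGA libraries (median ratio 1.17, from 0.97 to 1.70) and in 4 of 12 WT libraries (median ratio 0.74, from 0.45 to 1.35). Of the 73 P450 genes seen, 15 (20.5%) were above 0 in WT libraries only and 0 in TGA libraries only. Of all 21390 symbols seen, 22.4% were above 0 in WT only and 0 in TGA only. With all 24 libraries the P450 share in WT only thus lay near the background. The 0 in TGA only follows from the nesting of zeros described above. Without the 4 libraries with over 7000 genes, 9 WT and 11 TGA libraries remained. In these, 61 P450 genes were seen, 11 in WT only and 29 (47.5%) in TGA only. Of all 17738 symbols seen in them, 23.4% were in WT only and 32.8% in TGA only. This difference was not tested. The marker list for hepatocytes moved with the genotype as well: the mean of its 15 genes ran from 1.53 to 6.56 (median 3.03) in WT libraries and from 3.72 to 7.63 (median 4.93) in TGA libraries. Its part in the P450 values was not tested. In such bulk libraries, fewer cells of a type and less RNA per cell cannot be told apart.

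By subfamily, means over members and the 4 libraries of a group were low wherever a subfamily had many members. The 15 Cyp2c genes averaged 0.26, 0.19 and 0.00 in WT classes 2, 4 and 8 and 0.35, 0.18 and 0.03 in the TGA classes. The 7 Cyp3a genes averaged 0.20, 0.25 and 0.00 in WT and 0.56, 0.33 and 0.00 in TGA. In both subfamilies class 8 had the lowest mean in each genotype.

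The 4 Cyp2a genes averaged 0.98, 1.08 and 0.78 in WT classes 2, 4 and 8 and 2.95, 0.46 and 2.02 in TGA. The 9 Cyp2d genes averaged 1.07, 0.61 and 0.90 in WT and 2.04, 0.64 and 1.60 in TGA. Both were highest in TGA class 2 and both had a lower mean in TGA class 4 than in either other TGA class. The 7 Cyp2j genes, which include arachidonate epoxygenases, stayed between 0.09 and 0.55, the 9 Cyp4f genes between 0.16 and 0.59, the 5 Cyp4a genes between 0.00 and 0.64, and the 5 Cyp2b genes between 0.00 and 0.32. Since an absent read and an absent transcript both give 0 here, these means describe detection as much as level.

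**Figure D2:**
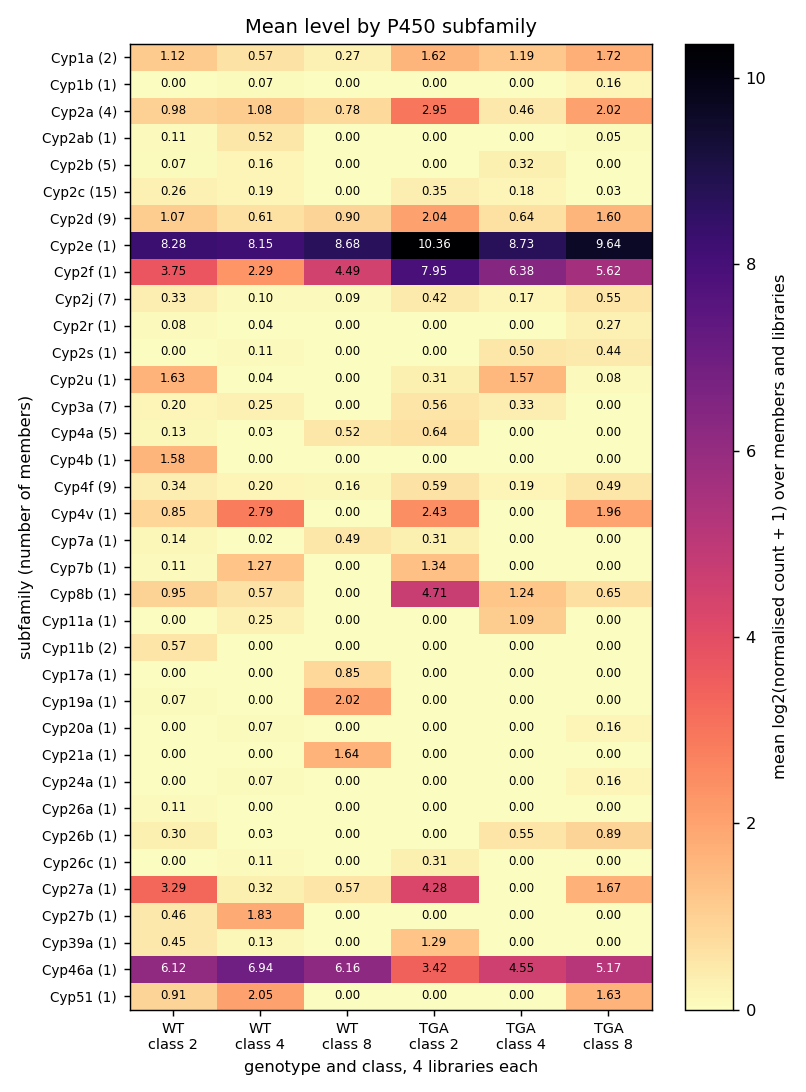
Mean log2(normalised count + 1) over members and 4 libraries for each subfamily (rows, number of members in brackets) in the 6 groups of genotype and class (columns); the 4 subfamilies never above 0 are left out. Cyp2e (8.15 to 10.36) is the highest in every column; Cyp2f (2.29 to 7.95) and Cyp46a (3.42 to 6.94) have the next highest means over all 24 libraries, but Cyp2f lies below Cyp4v (2.79) in WT class 4 and Cyp46a below Cyp8b (4.71) and Cyp27a (4.28) in TGA class 2.

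Levels of different genes were compared per kilobase of transcript, as the mean over 24 libraries of the log2 value after division by length. The ranking holds 93 genes and leaves out Cyp2d13, which had no matched transcript and a log2 level of 4.31 not divided by length. Cyp2e1 ranked highest at 8.10, followed by Cyp46a1 at 4.44, Cyp2f2 at 4.37, Cyp2a12 at 2.44, Cyp2a5 at 1.94 and Cyp1a2 at 1.76. The step from Cyp2e1 to the next was larger than the spread of Cyp2e1 over libraries (SD 1.14), while Cyp46a1 and Cyp2f2 lay closer together than either's spread (SD 1.84 and 2.78). Cyp46a1, a cholesterol hydroxylase best known from neurons, was above 0 in 22 libraries. Its highest log2 value, 8.39 in WT number 4 class 4, fell in the library in which Cyp2e1 had its lowest, 6.36.

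Testing was limited to genes that reached 1 on the deposited natural log scale in 4 or more libraries. This filter kept 4875 genes (13.6% of all) and 19 of the 95 P450 genes, and the other 76 members were not tested. Cyp2c68, Cyp2c70 and Cyp4f15 passed with exactly 4 such libraries, and Cyp2d10, Cyp3a25, Cyp51 and Cyp7b1 missed with 3. A member could pass through 1 group in which it was high, so counts over the 19 are descriptions and stand for no others. Of the values of these 19 genes, 52.6% were 0, against 54.1% for all tested genes.

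**Figure D3:**
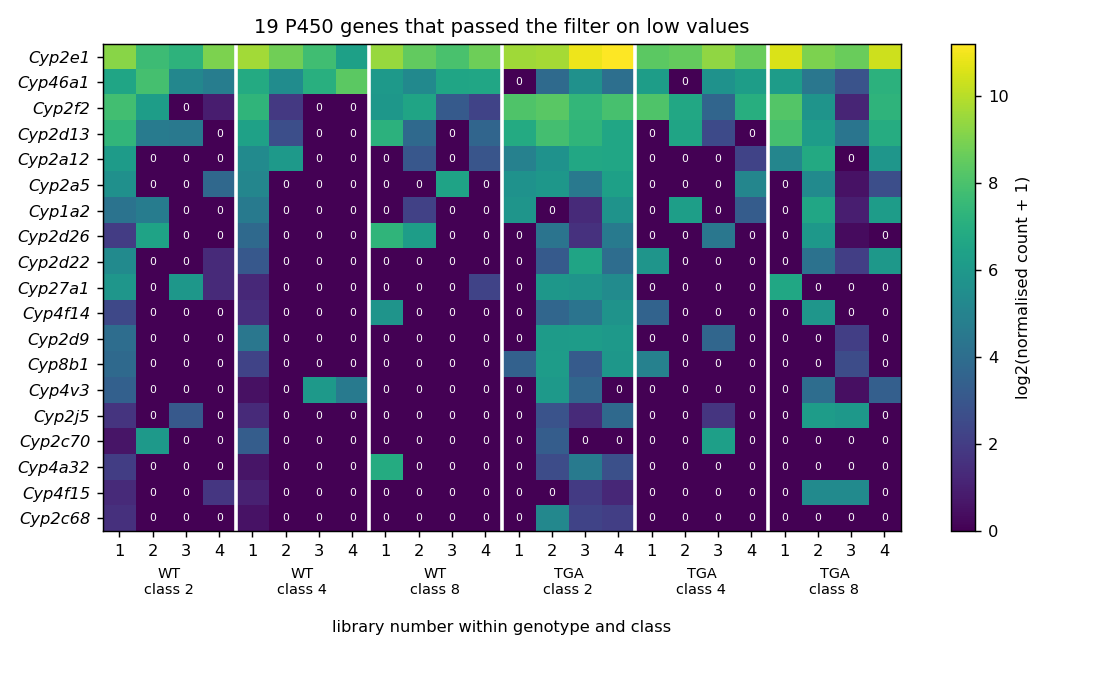
Level of the 19 P450 genes that passed the filter (rows, ordered by mean) in each of the 24 libraries (columns, numbers 1 to 4 within genotype and class), as log2(normalised count + 1), with 0 written into cells listed at 0. Cyp2e1 is the 1 row with no 0, WT number 1 is filled in all 19 rows in classes 2 and 4, and TGA class 2 is filled more densely than TGA classes 4 and 8.

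Cyp2e1, which oxidises ethanol and acetaminophen in hepatocytes around the central vein, was present in every library. In WT class 2 its values for numbers 1 to 4 were 9.22, 7.68, 7.23 and 8.998, in class 4 they were 9.66, 8.79, 7.77 and 6.36, and in class 8 they were 9.47, 8.54, 8.01 and 8.72. In TGA class 2 they were 9.62, 9.72, 10.91 and 11.21, in class 4 they were 8.36, 8.56, 9.36 and 8.63, and in class 8 they were 10.57, 8.98, 8.63 and 10.36. All 4 TGA libraries of class 2 lay above all 4 WT libraries of class 2, and the genotypes overlapped in classes 4 and 8. How many of all tested genes separate the genotypes in class 2 was not counted, so this separation is a description only. The log2 difference in class 2 was 2.08 (SE 0.88, adjusted p = 0.525, limma), and an exact two-sided permutation test of these values gave p = 0.0286, the smallest that 4 against 4 allows, or 0.40 after adjustment over 42 such tests. Over all classes TGA minus WT was 1.21 (SE 0.67, adjusted p = 0.587, limma), with higher TGA values for 3 of 4 numbers than for any WT number. Class 4 minus class 2 was -0.88 (SE 0.62) and class 8 minus class 2 was -0.16 (SE 0.62), neither past the threshold (adjusted p = 0.531 and 0.974, limma).

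Cyp1a2, which oxidises caffeine and aromatic amines and is induced through the aryl hydrocarbon receptor, was above 0 in 4 of 12 WT and 8 of 12 TGA libraries. The WT values were 4.27 and 4.71 in class 2 (numbers 1 and 2), 4.57 in class 4 (number 1) and 2.19 in class 8 (number 2), and the other 8 were 0. The TGA values were 5.84, 0, 1.36 and 5.75 in class 2, 0, 6.29, 0 and 3.27 in class 4, and 0, 6.64, 0.93 and 6.202 in class 8. Every class of each genotype held at least 1 library at 0, and the genotypes overlapped in each class. TGA minus WT was 1.71 over all classes (SE 0.97, adjusted p = 0.587, limma), 0.99 in class 2, 1.24 in class 4 and 2.90 in class 8 (adjusted p = 0.595). Class 4 minus class 2 was -0.98 (SE 1.19) and class 8 minus class 2 was -0.75 (SE 1.19), with adjusted p of 0.730 and 0.925 by limma.

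Cyp2a5, the coumarin hydroxylase of mouse liver, was above 0 in 4 WT and 8 TGA libraries. The WT values above 0 were 5.61 and 3.78 in class 2 (numbers 1 and 4), 5.13 in class 4 (number 1) and 6.49 in class 8 (number 3). TGA class 2 had 5.70, 5.94, 4.54 and 6.36, TGA class 4 had 5.15 in number 4 and 0 in the other 3, and TGA class 8 had 0, 5.35, 0.53 and 2.69. TGA class 2 was the only group in which all 4 libraries were above 0. The log2 difference was 3.29 between genotypes in class 2 (SE 1.65, adjusted p = 0.576, limma), and 0.00 in class 4 and 0.52 in class 8. Class 4 minus class 2 was -2.70 (SE 1.17, adjusted p = 0.309) and class 8 minus class 2 was -2.11 (SE 1.17, adjusted p = 0.733, limma). Reads of Cyp2a4 could add to these values, as its sequence above shows.

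Cyp2f2, which oxidises naphthalene and marks hepatocytes around the portal tract, was above 0 in 9 WT libraries and all 12 TGA libraries. In WT class 2 its values were 7.82, 6.25, 0 and 0.92, in class 4 they were 7.33, 1.85, 0 and 0, and in class 8 they were 5.95, 6.56, 3.17 and 2.26. In TGA class 2 they were 8.11, 8.32, 7.42 and 7.93, in class 4 they were 8.13, 6.72, 3.64 and 7.03, and in class 8 they were 8.22, 5.78, 1.18 and 7.30. The 4 values of TGA class 2 lay close together, from 7.42 to 8.32, whereas WT spanned from 0 to 7.82 in class 2 and from 0 to 7.33 in class 4. Averaged over classes, WT numbers 1 to 4 were at 7.03, 4.88, 1.06 and 1.06 and TGA numbers at 8.16, 6.94, 4.08 and 7.42, so the genotypes overlapped. TGA minus WT was 3.14 (SE 1.11, 95% interval 0.96 to 5.33, adjusted p = 0.294, limma), and 4.20, 4.09 and 1.14 in classes 2, 4 and 8. The SE and interval rest in part on the spread pooled over genes, and this gene's own 4 means had an SD of 2.96 in WT and 1.78 in TGA. An exact two-sided permutation test of these means gave p = 0.171, or 0.48 after adjustment over the 42 tests. Without WT number 1, whose class 2 and class 4 libraries hold the most genes, the difference over all classes was 4.32 with an adjusted p of 0.0279 (limma). Over all alternatives the adjusted p ran from 0.0279 to 0.755 (limma or exact permutation). That was the only P450 call under any alternative. Class 4 minus class 2 was -1.51 (SE 1.23) and class 8 minus class 2 was -0.79 (SE 1.23), with adjusted p of 0.583 and 0.923 by limma.

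Cyp2d9, a male-predominant steroid hydroxylase, was above 0 in 2 WT libraries, at 4.01 in number 1 class 2 and 4.44 in number 1 class 4. In TGA class 2 it was 0, 6.17, 6.18 and 6.01, and in the other TGA classes it was above 0 only in number 3, at 3.70 in class 4 and 2.10 in class 8. Within TGA class 2, 3 libraries thus lay between 6.01 and 6.18 and the other was listed at 0. The log2 difference in class 2 was 3.59 between genotypes (SE 1.39, adjusted p = 0.485), and class 8 minus class 2 was -2.53 (SE 0.98, adjusted p = 0.482, limma). Over all classes TGA minus WT was 1.31 (SE 0.86, adjusted p = 0.617), and class 4 minus class 2 was -1.78 (SE 0.98, adjusted p = 0.423, limma).

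Cyp27a1, the mitochondrial sterol hydroxylase that starts the alternative route of bile acid synthesis, was above 0 in 9 libraries, 6 of them in class 2. WT class 2 had 5.87, 0, 5.95 and 1.36, WT class 4 had 1.29 in number 1 and 0 in the others, and WT class 8 had 2.26 in number 4 and 0 in the others. TGA class 2 had 0, 5.91, 5.79 and 5.42, TGA class 4 had 0 in all 4, and TGA class 8 had 6.67 in number 1 and 0 in the others. The mean over class 2 was 3.79, over class 4 0.16 and over class 8 1.12. Class 4 minus class 2 was -3.62 (SE 1.07, 95% interval -5.78 to -1.47), the smallest p among the P450 genes in that comparison, with an adjusted p of 0.137 by limma. An exact permutation of class labels within genotype (4900 assignments, two-sided) gave p = 0.0102, or 0.40 after adjustment over the 42 tests. Class 8 minus class 2 was -2.67 (SE 1.07, adjusted p = 0.511, limma), and TGA minus WT was 0.59 (SE 0.89, adjusted p = 0.843).

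**Figure D4:**
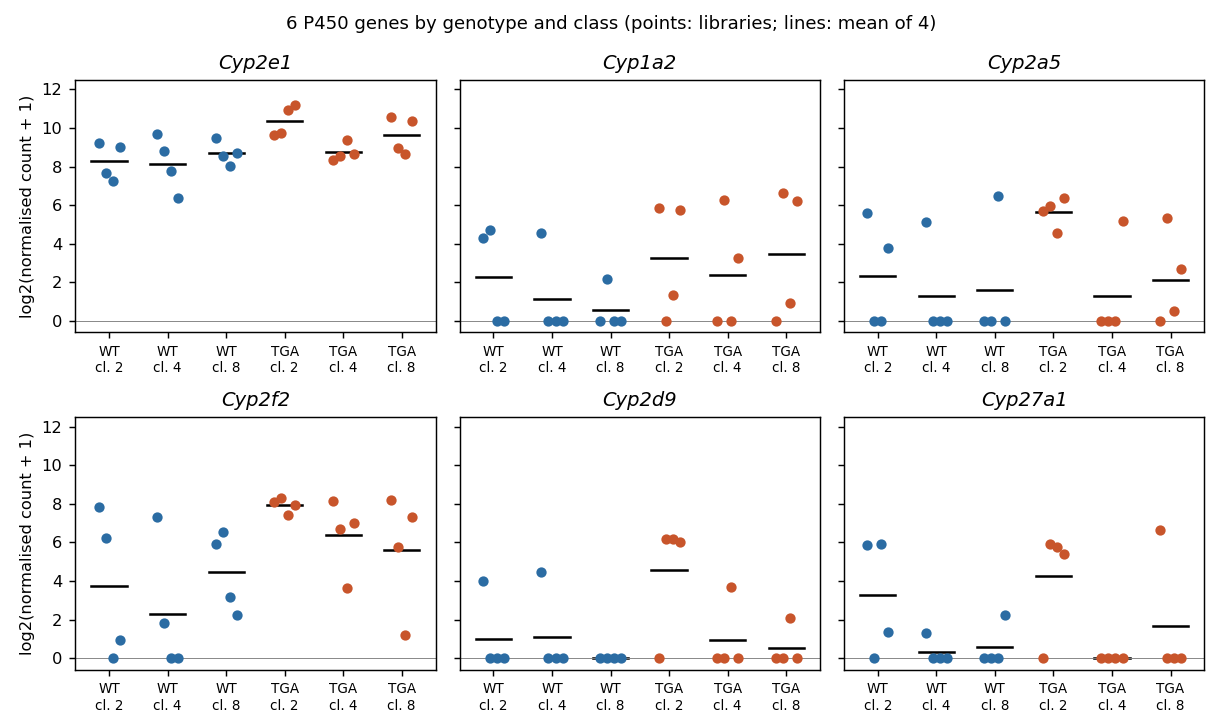
Level of the 6 genes as log2(normalised count + 1) in each library (points, numbers 1 to 4 from left to right) by genotype and class, with the mean of the 4 libraries as a line. Cyp2e1 stays between 6.36 and 11.21, and the other 5 genes switch between 0 and values of up to 8.32, with the densest values in TGA class 2.

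The class comparison asks whether expression differs between the 3 classes over both genotypes. No P450 gene passed an adjusted p of 0.05 in limma for class 4 against class 2 (0 of 19, against 15 of 4875 genes, 0.308%), for class 8 against class 2 (0 of 19, against 1 gene, 0.0205%) or for class 8 against class 4 (0 of 19, against 0 genes). At an unadjusted p under 0.05 the counts were 5 of 19 for class 4 against class 2 (13.6% of all tested genes), 4 of 19 for class 8 against class 2 (7.36%) and 1 of 19 for class 8 against class 4 (6.58%). All genes below that level in the first 2 comparisons had lower values in the higher class, and limma without the mean-dependent prior called 0 P450 genes as well. For class 4 against class 2 the values of 18 of 19 genes were lower, with a median log2 difference of -1.40 against -0.23 over all tested genes, of which 42.2% were higher. For class 8 against class 2 they were lower for 16 of 19, with a median of -0.75 against -0.16. For class 8 against class 4 they were higher for 13 of 19, with a median of 0.72 against 0.06. The 3 comparisons share libraries pairwise. In the hepatocyte list the median library mean was 6.25 in class 2, 4.34 in class 4 and 3.83 in class 8. It was thus lower in classes 4 and 8 than in class 2, as were the values of most P450 genes. From class 4 to class 8 this median fell, while the lowest library mean rose from 1.53 to 2.36 and the highest from 6.55 to 6.64. The lists for hepatocytes around the central vein and the portal tract hold Cyp2e1, Cyp1a2 and Cyp2f2 themselves. Their medians rose from 1.41 to 1.80 and from 2.35 to 2.79. Of the P450 genes, 13 of 19 had higher values in class 8 than in class 4. The median number of genes above 0 was also higher in class 2. The part of the hepatocyte lists and of the gene number in these differences was not tested.

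Beside the 6 genes above, the smallest p-values belonged to 3 others. Cyp2d13 had class means of 5.66 in class 2 and 2.27 in class 4, a difference of -3.39 (SE 1.21, adjusted p = 0.215, limma). Its WT values were 7.38, 4.65, 4.53 and 0 in class 2 and 6.42, 2.69, 0 and 0 in class 4, and its TGA values were 6.87, 7.84, 7.33 and 6.65 in class 2 and 0, 6.52, 2.50 and 0 in class 4. In class 8 it was at 7.21, 3.82, 0 and 3.65 in WT and at 7.92, 6.21, 4.34 and 6.95 in TGA, so that 4 of its 6 zeros lay in class 4. Cyp8b1, the sterol hydroxylase needed for cholic acid, averaged 2.83 in class 2, 0.90 in class 4 and 0.33 in class 8, and class 8 minus class 2 was -2.50 (SE 0.92, adjusted p = 0.480). It was above 0 in all 4 TGA libraries of class 2 (3.47, 6.21, 3.20 and 5.95) in WT number 1 in classes 2 and 4 (3.81 and 2.27), in TGA number 1 class 4 (4.94) and in TGA number 3 class 8 (2.62), and at 0 in the other 16 libraries. Cyp2c68 was above 0 in 5 libraries, at 1.55 and 0.55 in WT number 1 classes 2 and 4 and at 5.22, 2.26 and 2.10 in TGA numbers 2, 3 and 4 of class 2. It was at 0 in all 8 class 8 libraries, and class 8 minus class 2 was -1.39 (SE 0.50, adjusted p = 0.480, limma). The 4 libraries through which Cyp2c68 passed the filter were all of class 2. Its lower values in classes 4 and 8 are therefore no support for a class difference, although it is among the genes counted above at an unadjusted p under 0.05.

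**Figure D5:**
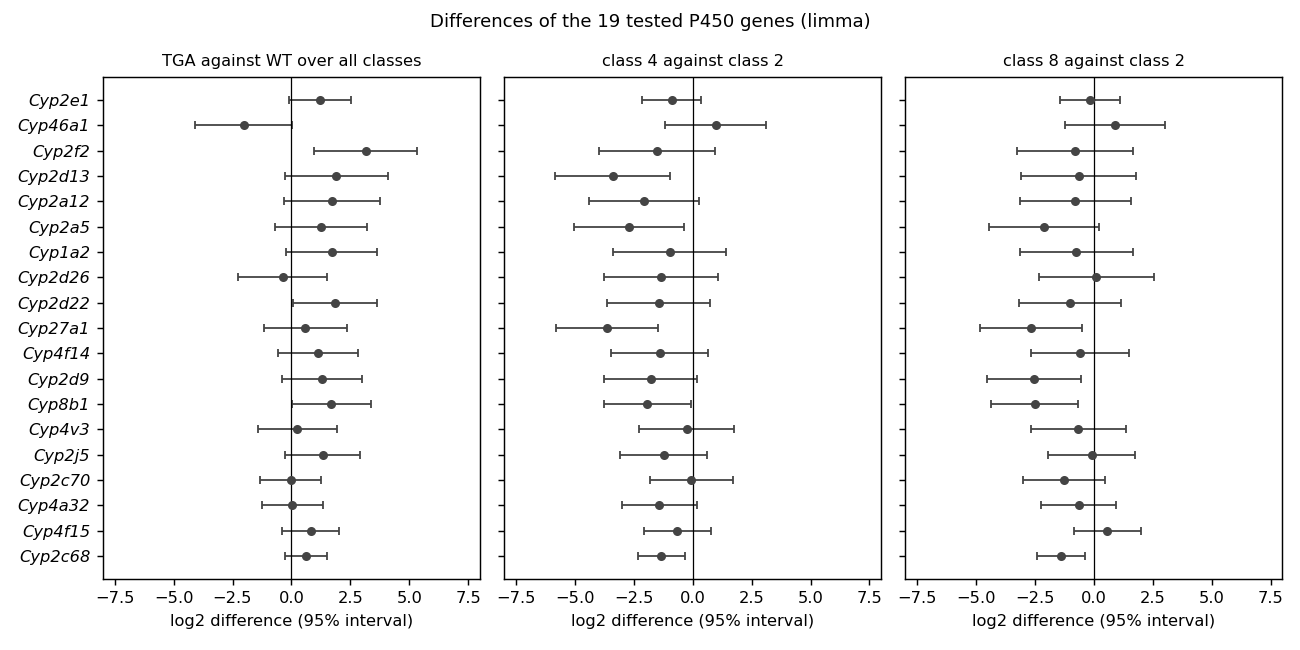
Log2 difference of the 19 tested P450 genes (rows) for TGA against WT over all classes, class 4 against class 2 and class 8 against class 2, as the limma estimate (points) with its 95% interval (bars). Most points lie right of 0 in the genotype panel and left of 0 in the class panels, and 0 of 19 pass the adjusted threshold in any panel.

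For TGA against WT over all classes, the 3 libraries sharing a genotype and a number were averaged first, which gave 4 values against 4. No P450 gene passed the threshold (0 of 19, limma), against 24 of 4875 genes (0.492%). At an unadjusted p under 0.05 there were 3 of 19, against 8.88% of all tested genes, namely Cyp2f2, Cyp2d22 and Cyp8b1, each higher in TGA. Values were higher in TGA for 16 of 19, with a median log2 difference of 1.21 against 0.11 over all tested genes, of which 54.7% were higher. In the hepatocyte list 14 of 15 genes had higher TGA values, and 3 of them, Alb, Apoa1 and Trf, passed the threshold. The part of this in the P450 differences was not tested.

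Cyp2d22 averaged 2.82, 0, 0 and 0.45 in WT numbers 1 to 4 and 1.95, 2.46, 2.88 and 3.33 in TGA, a difference of 1.84 (SE 0.90, adjusted p = 0.542, limma). Only WT number 1 reached the TGA range. Cyp8b1 averaged 2.03 in WT number 1 and 0 in the other 3, and 2.80, 2.07, 1.94 and 1.98 in TGA, a difference of 1.69 (SE 0.84, adjusted p = 0.546, limma). Here, too, WT number 1 alone lay within the TGA values.

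Cyp46a1 ran the other way. Its means were 6.51, 6.23, 6.29 and 6.59 in WT numbers 1 to 4 and 4.14, 2.78, 4.75 and 5.85 in TGA, so all 4 TGA means lay below all 4 WT means, a separation that 4.86% of tested genes showed in either direction and 1 of the 19 P450 genes. The difference was -2.02 (SE 1.05, 95% interval -4.09 to 0.04, adjusted p = 0.555, limma). By library, WT ranged from 4.74 to 8.39, and TGA from 0 in number 1 class 2 and number 2 class 4 to 7.21 in number 4 class 8, so single libraries overlapped.

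Within classes the genotype comparisons share no libraries with each other. They are still not independent: libraries of one number may come from one animal, and the spread was estimated over all 24 libraries. In class 2, 0 of 19 P450 genes passed (5 of 4875 genes, 0.103%), and 6 of 19 had an unadjusted p under 0.05 in limma against 8.72% of tested genes. These were Cyp8b1, Cyp2c68, Cyp2a12, Cyp2d9, Cyp2f2 and Cyp2e1, all higher in TGA, and values were higher for 17 of 19 (median 1.98 against 0.15). Cyp2c68 passed the filter only through class 2 libraries, WT number 1 and TGA numbers 2, 3 and 4. Its difference here is therefore no support for a genotype difference. Cyp2a12, which hydroxylates bile acids and steroids, was at 6.15 in WT number 1 and 0 in the other 3, and at 4.93, 5.73, 6.71 and 6.62 in TGA. In class 4, 0 of 19 passed (1 gene, 0.0205%) and only Cyp2f2 had an unadjusted p under 0.05 (4.25% of tested genes), with a median difference of 0.00 over the 19. In class 8, 0 of 19 passed (1 gene, 0.0205%), and Cyp4f15 and Cyp2j5 had an unadjusted p under 0.05 in limma (9.76% of tested genes), with a median of 0.95.

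Whether class differences depend on the genotype was tested by interaction terms, and 0 of 19 P450 genes and 0 of 4875 genes passed the threshold in limma for either. For class 4 against class 2, 3 of 19 had an unadjusted p under 0.05 (6.34% of tested genes), which were Cyp2a12, Cyp4v3 and Cyp2c68. Since Cyp2c68 passed the filter through class 2 libraries only, mostly of TGA, its interaction is no support for a dependence on genotype. For class 8 against class 2 it was 1 of 19 (4.06%), Cyp4a32. The interaction for Cyp2d9, class 4 against class 2, was -3.77 (SE 1.97, 95% interval -7.74 to 0.19), and that for Cyp2f2 was -0.11 with an interval from -5.06 to 4.84. Intervals this wide leave differences of many fold undetectable in these libraries.

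By role, families 1 to 3 held 57 members, of which 11 were tested and 17 were never above 0. In class 4 against class 2 all 11 tested had lower values (median -1.44) and in TGA against WT 10 of 11 had higher values (median 1.32). The threshold in limma was passed by 0 in either, against 0.308% and 0.492% of all tested genes. At an unadjusted p under 0.05 there were 3 and 2 of 11, against 13.6% and 8.88% of all tested genes. Cyp2c68, which passed the filter through class 2 libraries only, is among the 3. Family 4, the fatty acid hydroxylases, held 17 members, 4 tested and 4 never above 0. Its members with the highest means were Cyp4f14 (above 0 in 8 libraries), Cyp4v3 (9 libraries) and Cyp4a32 (6 libraries, highest 6.91 in WT number 1 class 8). The Cyp4a genes are known targets of the fatty acid receptor Ppara, and Cyp4a10 was above 0 in 2 libraries and Cyp4a14 in none.

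All 7 genes of bile acid synthesis were above 0 in at least 5 libraries, and 4 were tested. Cyp7a1, the rate-limiting enzyme of the classical route, was above 0 in 6 libraries but reached only 1.97, in WT number 1 class 8, and was not tested. Cyp7b1 and Cyp39a1, which hydroxylate oxysterols, were above 0 in 5 libraries each, with highest values of 4.39 and 3.22. Cyp2c70, which makes the muricholic acids of mice, was above 0 in 5 libraries, at 6.08 in WT number 2 class 2 and 6.34 in TGA number 3 class 4. In class 4 against class 2, 0 of the 4 tested genes passed in limma, against 0.308% of all tested genes. An unadjusted p under 0.05 was found for 2 of the 4, against 13.6% of all tested genes. These were Cyp27a1 and Cyp8b1, both lower in class 4.

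Of the 6 genes of vitamin D and retinoic acid metabolism, none was tested. Cyp26b1, which degrades retinoic acid, was above 0 in 2 WT libraries (1.19 and 0.11) and 6 TGA libraries (0.23 to 1.72), all low. Cyp27b1, which activates vitamin D, was above 0 in 4 WT libraries with a highest value of 5.996 and in no TGA library, and Cyp26c1 was above 0 in 2 libraries. Of the 6 genes of steroid hormone synthesis, which belong to gonad and adrenal gland, none was tested. Cyp19a1 (aromatase) was above 0 in 4 WT libraries with a highest value of 4.70, Cyp21a1 in WT number 1 class 8 at 6.57, and Cyp11a1 in 2 libraries. Cyp51, the lanosterol demethylase of cholesterol synthesis, was above 0 in 5 libraries, at 7.89 in WT number 4 class 4 and 5.68 in TGA number 1 class 8 and below 4 in the other 3. Cyp20a1, a member with no known substrate, was above 0 in 2 libraries.

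Among sex-biased members, the male-predominant Cyp2d9 and Cyp7b1 were above 0 in 7 and 5 libraries. Of 5 female-biased members, Cyp2b9, Cyp2b13 and Cyp3a44 were never above 0, Cyp3a16 was above 0 in 2 libraries and Cyp2a4 in 3. The sex of the animals is not in the labels.

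The partners of the P450 enzymes were read from 3 lists. Of 11 electron donors and haem genes, 5 were tested, and 1 passed the threshold between genotypes, against 0.492% of all tested genes. Cyb5r3, the reductase that passes electrons to cytochrome b5, averaged 14.11, 14.24, 14.78 and 15.01 in WT numbers 1 to 4 and 14.29, 13.68, 12.51 and 13.74 in TGA. It was lower by 0.98 on the log2 scale in TGA (SE 0.21, adjusted p = 0.00326, limma), although the values of the genotypes overlapped. Several of its values recurred exactly, such as 14.32 in WT number 2 classes 2 and 8 and in TGA number 1 class 8. The highest value of any gene was 16.41. Under the quantile normalisation inferred below, such values are steps between ranks near the top, so the difference is one of rank. The SE rests on the spread pooled over genes, and from this gene's own spread (SD 0.43 in WT and 0.75 in TGA, n = 4 each) it would be 0.43. Its lowest library was TGA number 3 class 8, at 10.60, one of the 4 with over 7000 genes. The call was lost without the 4 libraries with over 7000 genes (-0.67, adjusted p = 0.142), without the mean-dependent prior (adjusted p = 0.637), with the stricter filter of 12 libraries (adjusted p = 0.123), without WT number 3 (adjusted p = 0.0617) and without WT number 4 (adjusted p = 0.162), all by limma. Without TGA number 3 the difference was -0.63 (adjusted p = 0.0482, limma). Over all 15 alternatives the adjusted p ran from 1.51e-07 to 0.637.

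Por, the main electron donor of microsomal P450 enzymes, did not pass the threshold in any comparison, nor did the tested donors other than Cyb5r3. Of 17 nuclear receptors and regulators 11 were tested and 0 passed by limma. Of 63 genes of conjugation and other drug metabolism 18 were tested and 0 passed. In TGA against WT 16 of these 18 had higher values (median 1.01), led by the monooxygenase Fmo1 at 3.32 (SE 1.003, adjusted p = 0.138) and the carboxylesterase Ces3a at 3.43 (SE 1.06, adjusted p = 0.144). In class 4 against class 2, 16 of 18 had lower values (median -1.56). An unadjusted p under 0.05 in limma was found for 4 of the 18, against 13.6% of all tested genes. The epoxide hydrolase Ephx2 was at -1.57 (SE 0.56, adjusted p = 0.215) and Mgst1, a microsomal glutathione transferase, at -2.73 (SE 1.01, adjusted p = 0.237). In both comparisons the median over all tested genes, given above, leaned the same way but less.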

How the data were processed

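The authors deposited a single table of 35974 gene symbols by 24 libraries on a natural log scale. No source states the unit, which was read off the values: the lowest levels above 0 and a highest value shared by 20 of 24 libraries are those of log(count + 1) values that were quantile-normalised across libraries. The submitters' processing notes name TopHat, edgeR and the build mm9. Neither versions nor the counting program, annotation and normalization are given in the sources used here. Dividing by the natural log of 2 gave log2 values. They are not counts, so no count model was run, and depth and counting intervals are unknown.

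Genes that reached a deposited 1 in 4 or more libraries entered limma (3.58.1, R 4.3.3), with a mean-dependent prior (limma-trend), 1 mean per group over all 24 libraries, and no block. TGA against WT over all classes used 8 means, 1 per genotype and number. Benjamini-Hochberg adjustment covered all 4875 tested genes, with a threshold of 0.05. Exact two-sided permutation tests were added for 6 genes. The fit was tested on simulated data. Leave-one-out and other alternatives are given in the closing section.

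The members and gene lists were chosen with earlier results of these data known. Named genes were the 6 shown singly, members past the threshold, the 5 members with the smallest p in 3 main comparisons, the 3 with the highest mean in each role list, and in partner lists those past the threshold and the 2 with the smallest p. Others are named by count or chosen after their values were seen. Symbols were matched to GENCODE M21 (GRCm38), which differs from mm9, so no coordinates are printed. The regulators with the smallest p are not reported here.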

Additional observations from a re-analysis of the deposited data

Results flagged for a closer look

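In each of the 6 groups, the counts of P450 genes and the levels of the 6 genes described singly were searched for 1 library that stood far from the other 3 (a gap to its neighbour past Dixon's critical value for 4 values). Of 42 sets of 4 libraries, 15 met this, where chance alone gives about 1 in 20 for continuous values. In 12 of the 15 the other 3 libraries were at 0, so any value above 0 met it.

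The count of 51 P450 genes in WT number 1 class 4 stood above 3, 6 and 11 in the rest of its group. The same library was the only one above 0 in WT class 4 for Cyp1a2 (4.57), Cyp2a5 (5.13), Cyp2d9 (4.44) and Cyp27a1 (1.29). It held 14469 genes above 0, the second most of all libraries. WT number 1 class 2 was the only library above 0 for Cyp2d9 in its group (4.01).

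In WT class 8 the single library above 0 was number 2 for Cyp1a2 (2.19), number 3 for Cyp2a5 (6.49) and number 4 for Cyp27a1 (2.26). In TGA class 4 it was number 4 for Cyp2a5 (5.15) and number 3 for Cyp2d9 (3.70). In TGA class 8 it was number 3 for Cyp2d9 (2.10) and number 1 for Cyp27a1 (6.67). 

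TGA number 1 class 2 was the reverse case, at 0 for both Cyp2d9 and Cyp27a1 while the other 3 libraries of its group lay from 6.01 to 6.18 and from 5.42 to 5.91. In that library Cyp46a1 was also at 0, while Cyp2e1 (9.62), Cyp2f2 (8.11) and Cyp2a5 (5.70) were not, and it held 11 P450 genes, the fewest of its group.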

How the results depend on the processing

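No P450 gene passed in any of the 9 comparisons, and under the alternatives this count stayed at 0 except once: without WT number 1, TGA against WT gave 1 (Cyp2f2, 4.32, adjusted p = 0.0279, limma), the leave-one-out range being 0 to 1. The alternatives were no filter on low values, a filter of 12 libraries, a pseudocount of 10, the replicate block, a covariate for genes detected, no mean-dependent prior, leaving out the 4 libraries with over 7000 genes, leaving out each genotype and number, and exact permutation for 6 genes. Over all genes, 15 were called in class 4 against class 2 (0 to 32 under the alternatives) and 24 in TGA against WT (5 to 95). Of 945 alternative values for 63 single differences, 894 kept their direction and side of the threshold, 41 changed sign and 4 came to exactly 0, all of them uncalled, 5 (all of Cyb5r3) lost the call and 1 gained it. No reversal occurred for class 4 against class 2 or for TGA against WT over all classes. The causes of the reversals were not tested.

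With genes detected as a covariate, the log2 differences that changed sign were 0.092 for Cyp2e1 in class 8 against class 2, 0.99 for Cyp2d9 in TGA against WT in class 4, and for the interactions -0.0449 for Cyp27a1 (class 8) and 0.18 for Cyp2f2 (class 4). Without the 4 libraries with over 7000 genes they were 0.42 for Cyp2e1 and 0.26 for Cyp2f2 in class 8 against class 2, 0.93 for Cyp2d9 between genotypes in class 4 and 0.94 for Cyp2f2 in the class 4 interaction, and the differences between genotypes came to 0 for Cyp27a1 in class 4 and for Cyp2d9 in class 8, with no direction. With a pseudocount of 10, Cyp2a5 was at -0.075 between genotypes in class 8. Leaving out each number in turn, class 8 against class 2 ran from -0.44 to 0.096 for Cyp2e1 and from -1.82 to 0.26 for Cyp1a2, and class 8 against class 4 from -0.23 to 0.89 for Cyp1a2 and from -0.43 to 1.51 for Cyp2a5. Between genotypes the ranges were -0.11 to 2.41 for Cyp27a1 in class 2, and in class 4 they were -0.012 to 1.09 for Cyp2e1, -0.055 to 2.39 for Cyp1a2, -1.28 to 1.29 for Cyp2a5, -1.11 to 0.93 for Cyp2d9 and -0.43 to 0 for Cyp27a1. In class 8 they were -0.55 to 2.14 for Cyp2a5, 0 to 0.70 for Cyp2d9 and -0.57 to 1.67 for Cyp27a1. For the interactions they were -0.24 to 3.92 for Cyp1a2 and -2.98 to 1.33 for Cyp27a1 (class 8), and -2.12 to 1.92 for Cyp1a2 and -1.09 to 0.63 for Cyp2f2 (class 4).

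Libraries with one number did not all deviate together: within a genotype the correlation of their deviations ran from -0.096 to 0.43 (median 0.033, 24 pairs, 2 over 0.1), the highest between WT number 1 class 2 and class 4, against -0.21 to 0.12 in 72 pairs of other numbers, and 12 of 24 libraries correlated best with their own number. Between genotypes it ran from -0.27 to 0.055 (12 pairs). The samples share only a number. With the replicate block 0 P450 genes passed in any comparison, while calls over all genes moved from 15 to 23 in class 4 against class 2 and from 24 to 17 in TGA against WT.

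Depth is unknown and 54.1% of the tested values are 0, so differences smaller than the printed intervals were not detectable.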

Other observations

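Among the 10 symbols that resemble P450 names but fall outside the definition, 6 were above 0 in no library: Cyp2c53-ps, Cyp3a41a, Cyp3a41b, Cyp4a12b, Cyp4b1-ps2 and Cyp4x1os. Cyp4a12a, a male-predominant fatty acid hydroxylase, was above 0 in 2 libraries with a highest value of 3.28, in TGA number 3 class 2. The pseudogenes Cyp2d37-ps and Cyp4f41-ps were each above 0 in 2 libraries, at up to 0.50 and 0.85 in TGA number 3 class 8, and Cyp4a30b in 2 WT libraries at up to 1.19. Apart from Cyp4a12a, none of them rose above 1.19.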
